A study of Mus musculus with 6 samples.

Results

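The microglia genes examined here were 9 transcripts of the brain's resident macrophages: the receptors Csf1r, Cx3cr1, P2ry12, Trem2 and Fcrls, the adaptor Tyrobp, and the complement subunits C1qa, C1qb and C1qc. They were taken by symbol from a table of 45583 gene rows, all 9 were found, and all 9 had enough counts to be tested among 13741 genes. RNA was sequenced from the cortex of 6 male fetuses of the Cyp19-EGFP strain, in which an added copy of the aromatase gene carries a fluorescent reporter. All 6 fetuses were genotyped as wild type and Sry-positive and were taken at GD15.5 (gestational day). Dams of 3 fetuses had been injected with bisphenol A (BPA, a plastic monomer that acts as a weak estrogen) at 50 µg/kg on GD10.5 to GD14.5, and dams of the other 3 with peanut oil as vehicle. Each fetus gave 1 library, and the labels name fetuses but not litters, so p-values measure the spread between these fetuses only.

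Microglia arise from yolk sac progenitors, enter the brain in early gestation and maintain themselves there by dividing. Their survival depends on CSF1R, which binds the growth factors CSF1 and interleukin 34. CX3CR1 and P2RY12 sense signals released by neurons, TREM2 passes its signal through TYROBP, and C1q starts the classical complement cascade and tags synapses and debris for removal. In the fetal cortex microglia are sparse among neurons and progenitors.

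These genes gave little of the RNA. Total counts ran from 3444601 to 7180835 per library, and the 9 genes together held 0.00671% of all counts, from 234 to 484 counts per library. CPM denotes counts scaled to library size. Counting error alone lets a gene with no counts lie anywhere up to 0.422 CPM where depth was greatest, and up to 0.875 CPM where it was least. The label was checked against the data. All 9 genes had counts in every library, the lowest being 3 counts of Tyrobp, whereas the monocyte and granulocyte list (Ccr2, Ly6c2, S100a8, Mpo and others) had at most 3 counts per library for 11 of its 12 genes. The exception was Lyz2, at 4 to 17 counts, which was tested and not called. In bulk tissue, fewer cells of a type and less RNA per cell cannot be told apart.

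PU.1, encoded by Spi1, is the transcription factor that sets macrophage identity, and it binds purine-rich sites with the core letters GAGGAA. Spi1 itself had from 2 to 14 counts per library. The promoters of the genes are shown here because shared letters of this kind are what a reader would look for in a set of macrophage genes. RefSeq (GRCm38.p6) windows of 250 bases upstream of the RefSeq start site were examined for 6 of the 9 genes. None was at hand for C1qa or Tyrobp, and the window of Csf1r was left out. GAGGAA, on either strand, was present in the windows of Trem2, C1qb, C1qc and Fcrls, that is 4 of 6. Of the 32851 upstream windows of all genes, 23.3% held it. GGAAGT, a core bound by the wider ETS family, was present in 4 of 6 (P2ry12, C1qb, C1qc and Fcrls) and in 19.7% of all windows. The Cx3cr1 window held neither. In the GENCODE annotation, the windows of Fcrls, C1qc and Cx3cr1 overlap an exon of the gene itself, and that of P2ry12 an exon of Med12l. The Fcrls matches and the whole Cx3cr1 window lie inside the GENCODE span of the gene, so they are not upstream of that start. A match of letters is not a binding site, and no test was made of these counts. The whole window is given for C1qb and Trem2, whose windows overlap no annotated exon, and 30 bases around a match for the others. Capitals mark GAGGAA or GGAAGT, or their reverse complements TTCCTC and ACTTCC, and in C1qc the matches overlap each other.
C1qb, chr4:136886201-136886450, minus strand: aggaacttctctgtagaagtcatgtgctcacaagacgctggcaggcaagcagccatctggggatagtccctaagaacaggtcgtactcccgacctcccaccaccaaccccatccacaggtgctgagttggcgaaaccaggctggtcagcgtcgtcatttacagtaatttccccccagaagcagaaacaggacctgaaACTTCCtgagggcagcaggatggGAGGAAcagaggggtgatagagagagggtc
Trem2, chr17:48346151-48346400, plus strand: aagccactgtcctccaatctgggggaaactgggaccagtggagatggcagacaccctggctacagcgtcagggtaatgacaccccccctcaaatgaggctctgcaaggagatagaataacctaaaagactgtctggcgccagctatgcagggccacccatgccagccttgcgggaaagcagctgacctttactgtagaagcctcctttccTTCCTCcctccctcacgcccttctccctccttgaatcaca
C1qc, chr4:136893090-136893119, minus strand: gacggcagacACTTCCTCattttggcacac
Fcrls, chr3:87263651-87263680, minus strand: caagtctgtaaaGAGGAAggacgtttgctt
Fcrls, chr3:87263582-87263611, minus strand: gacaactttgccACTTCCtttttttcctat
P2ry12, chr3:59263019-59263048, minus strand: agctaacaagaaGGAAGTtccccagtgaca

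How abundant the transcripts were relative to each other was read per length, as mean CPM per kilobase of merged exons over the 6 libraries. C1qa, the A chain of C1q, was highest at 5.59 ± 0.532 (SD, n = 6), followed by C1qb, the B chain, at 4.70 ± 0.966. P2ry12 (3.41 ± 0.350), C1qc (3.39 ± 0.557), Cx3cr1 (3.24 ± 0.235), Csf1r (3.16 ± 0.532) and Tyrobp (2.80 ± 1.61) came next. From C1qa down to Tyrobp, the range over libraries of each gene overlapped that of its neighbor in the order. Fcrls, a mouse Fc receptor-like gene used as a marker of microglia, was at 1.76 ± 0.356. Trem2 was last at 0.583 ± 0.140, and its highest library (0.857) lay below the lowest of Fcrls (1.39).

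That order depended on which exons were counted as the gene. Taken per kilobase of the longest protein-coding transcript, Trem2 was at 2.65, above Fcrls at 1.81, because the merged exons of Trem2 cover 4946 bases and its longest coding transcript 1088. C1qc likewise moved from 3.39 to 5.45, next to C1qa at 5.59 and C1qb at 4.70. The levels of the 3 chains, which assemble in equal numbers in the C1q protein, lay closer together on this scale than per merged exons.

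**Figure D1:**
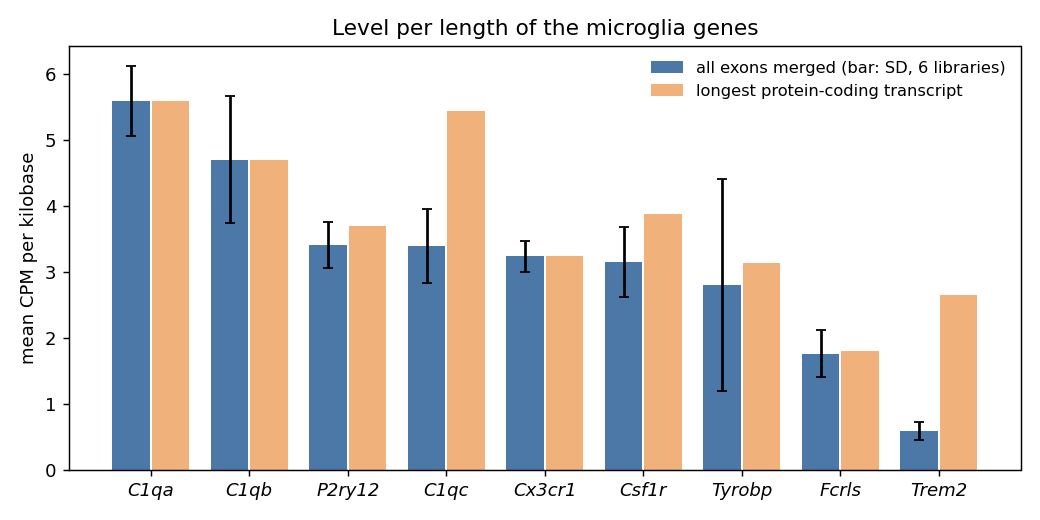
Mean CPM per kilobase (vertical axis) of the 9 microglia genes over 6 libraries, per length of all merged exons (blue, error bars SD) and per length of the longest protein-coding transcript (orange). C1qa is highest at 5.59 on both scales, and Trem2 moves from 0.583 to 2.65 with the length used.

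The comparison of BPA with vehicle asked whether maternal exposure was followed by a different level of these transcripts in the fetal cortex. None of the 9 genes was called. In the edgeR quasi-likelihood test with Benjamini-Hochberg adjustment over all genes tested, 0 of 9 passed an adjusted p of 0.1, against 0% of all genes, and the adjusted p was 1 for each. At an unadjusted p under 0.05 there were also 0 of 9, against 2.20% of all genes (302 genes). The groups overlapped for all 9 genes, where 6.75% of all genes did not overlap. Fitted log2 fold changes were below 0 for 5 genes and above 0 for 4, against 49.5% below 0 over all genes, and their median was -0.0043, against 0.0016 over all genes.

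Summed over the 9 genes, the level was 71.2, 57.0 and 75.9 CPM in the vehicle libraries and 65.3, 69.2 and 68.3 CPM in the BPA libraries. The means were 68.0 CPM ± 9.84 (SD, n = 3) and 67.6 CPM ± 2.03 (SD, n = 3), a ratio of 0.994. The BPA libraries lay inside the range of the vehicle libraries, which was set by vehicle replicate 2 at the low end and vehicle replicate 3 at the high end.

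**Figure D2:**
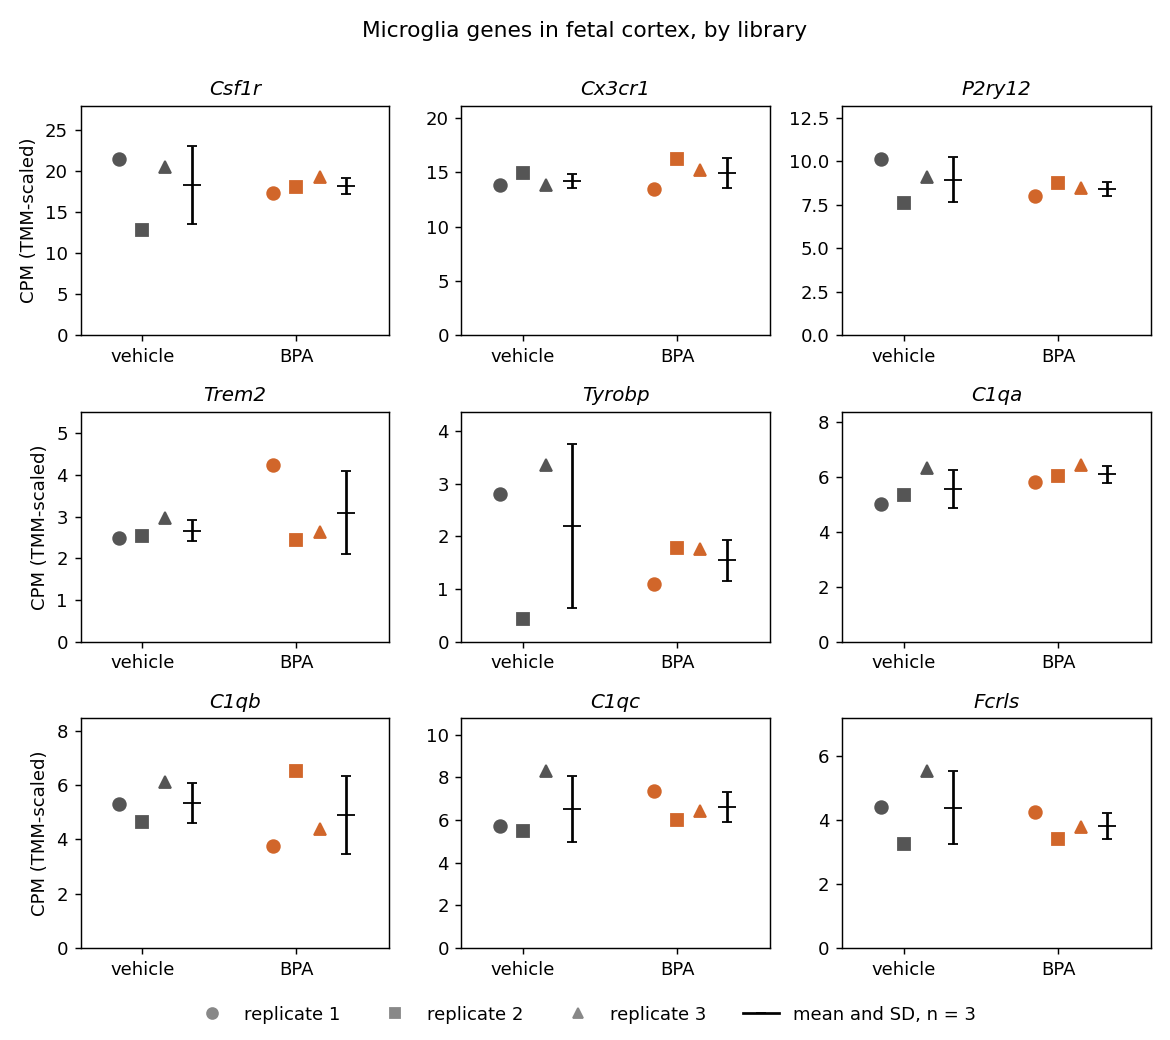
CPM (vertical axis, from 0) of each microglia gene in the 3 vehicle (gray) and 3 BPA (orange) libraries, with the symbol marking the replicate and the bar the mean and SD. The groups overlap in all 9 panels, and vehicle replicate 2 (gray square) is the lowest point for 5 of them.

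Csf1r, the receptor for the microglial growth factors, is on chromosome 18 (61100598 to 61132149, plus strand). It was the most highly counted of the 9 genes, at 66 to 146 counts per library. Its level was 21.5, 12.8 and 20.5 CPM in vehicle and 17.3, 18.0 and 19.3 CPM in BPA. The BPA libraries lay close together between the vehicle values. The log2 fold change was -0.0043 (SE 0.188), and its 95% interval reached from 0.756-fold to 1.31-fold. Csf1r shares exonic bases with Hmgxb3 on the opposite strand (14.3% of its 50-base words, 251 to 480 counts of Hmgxb3 per library), and since the strand setting of the counting is not stated its counts are uncertain to that extent. The receptor's ligands were also measured. Csf1 averaged 18.7 CPM ± 1.73 under vehicle and 18.0 CPM ± 1.75 under BPA (SD, n = 3 each), while Il34 had only 1 to 8 counts per library and was not tested.

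Cx3cr1, the fractalkine receptor (chromosome 9, 119901616 to 120069879, minus strand), was the steadiest of the 9 genes. It was at 13.8, 14.9 and 13.8 CPM in vehicle and 13.5, 16.3 and 15.2 CPM in BPA, with 1.2-fold between the lowest and the highest library. The log2 fold change of Cx3cr1 was 0.07 (SE 0.161), with a 95% interval from 0.830-fold to 1.33-fold. Cx3cl1, the neuronal ligand of this receptor, averaged 38.1 CPM ± 3.89 under vehicle and 37.1 CPM ± 2.82 under BPA (SD, n = 3 each). P2ry12 (chromosome 3, 59216272 to 59262871, minus strand), a receptor for ADP that steers microglial processes, was at 10.1, 7.60 and 9.07 CPM in vehicle and 8.01, 8.78 and 8.46 CPM in BPA. The BPA values again lay inside the vehicle range, and the log2 fold change was -0.09 (SE 0.202). P2ry12 lies within Med12l, which is transcribed from the opposite strand, but their exons overlap by only 9 bases.

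Trem2 and Tyrobp form a receptor for lipids and apolipoproteins and its signaling adaptor, and had the fewest counts. Trem2 (chromosome 17, 48346401 to 48354147, plus strand) had 9 to 27 counts per library, at 2.50, 2.53 and 2.96 CPM in vehicle and 4.24, 2.44 and 2.63 CPM in BPA. BPA replicate 1 stood above the other 5 libraries, which ran from 2.44 to 2.96 CPM. The log2 fold change was 0.26 (SE 0.322). Tyrobp (chromosome 7, 30413760 to 30417585, plus strand) had 3 to 19 counts, at 2.79, 0.422 and 3.35 CPM in vehicle and 1.10, 1.79 and 1.75 CPM in BPA. Vehicle replicate 2 was below and the other vehicle libraries above every BPA library. The log2 fold change of Tyrobp was -0.46 (SE 0.545) and its 95% interval, from 0.325-fold to 1.62-fold, was the widest of the 9. The size of this difference depended on single libraries. Without vehicle replicate 2 the log2 fold change of Tyrobp was -1.0 (edgeR quasi-likelihood test, unadjusted p = 0.0256, adjusted p = 0.949), in a fit where 5.10% of all genes had an unadjusted p under 0.05. It was -0.17 without vehicle replicate 1, -0.07 without vehicle replicate 3 and -0.24 without BPA replicate 1.

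The C1q chains are encoded side by side on chromosome 4, in the order C1qb (136880129 to 136886187), C1qc (136889804 to 136893065) and C1qa (136895917 to 136898803), all on the minus strand. C1qa was at 5.0, 5.35 and 6.31 CPM in vehicle and 5.81, 6.01 and 6.42 CPM in BPA. C1qb was at 5.29, 4.65 and 6.11 CPM in vehicle and 3.77, 6.50 and 4.38 CPM in BPA. C1qc was at 5.74, 5.49 and 8.28 CPM in vehicle and 7.38, 6.01 and 6.42 CPM in BPA. Log2 fold changes were 0.13 (SE 0.230) for C1qa, -0.10 (SE 0.269) for C1qb and 0.05 (SE 0.238) for C1qc, each smaller than its standard error. Their summed level was 16.0, 15.49 and 20.7 CPM in vehicle and 17.0, 18.5 and 17.2 CPM in BPA. The share of C1qb in the summed C1q counts varied most, from 22.2% (24 of 108 counts) in BPA replicate 1 to 35.1% (40 of 114 counts) in BPA replicate 2. Fcrls (chromosome 3, 87250758 to 87263738, minus strand) was at 4.41, 3.24 and 5.52 CPM in vehicle and 4.24, 3.41 and 3.79 CPM in BPA, a log2 fold change of -0.17 (SE 0.284).

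**Figure D3:**
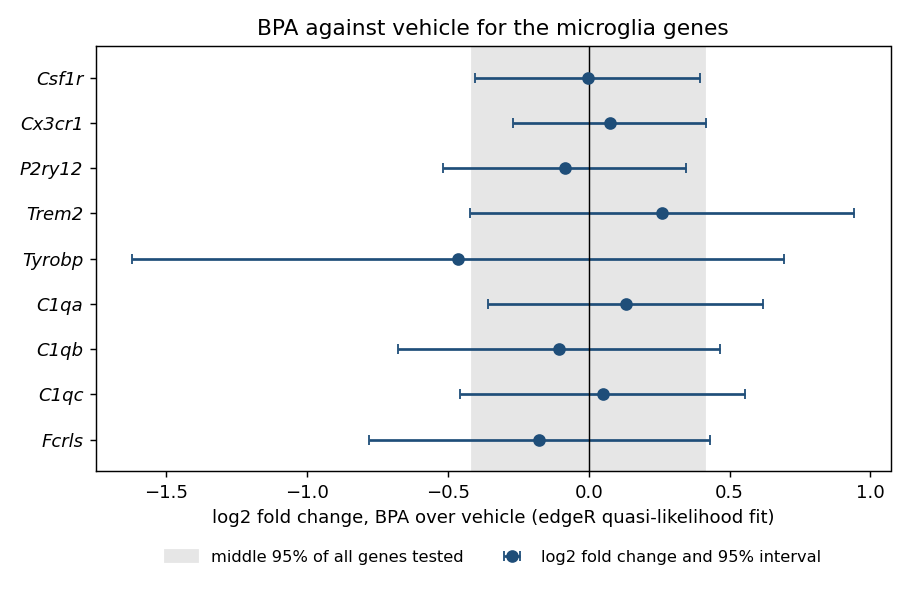
Log2 fold change of BPA over vehicle (horizontal axis) for each microglia gene, with its 95% interval from the quasi-likelihood fit, over a gray band that holds the middle 95% of all 13741 genes tested (-0.41 to 0.41). All 9 intervals include 0, and only the Tyrobp estimate (-0.46) lies outside the band.

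The precision behind these values differed between genes. All 9 intervals of the log2 fold change included 0, with a median half-width of 0.51, so changes of the size of the interval bounds were not excluded for any of them. For 7 of the 9 genes the counts of the 6 libraries varied around a common rate with a chi-square between 0.297 (C1qa) and 1.25 (C1qb) per degree of freedom, where counting error alone gives about 1. Csf1r (3.49) and Tyrobp (3.94) varied more than that. The SD was smaller in BPA than in vehicle for 6 of the 9 genes, which was not tested.

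Vehicle replicate 2 stood apart for these genes. It was the lowest of the 6 libraries for 5 of the 9 (Csf1r, P2ry12, Tyrobp, C1qc and Fcrls) and the highest for 0. The same library held much RNA of choroid plexus genes. The 8 genes of that list summed to 220 CPM, against 10.3 and 11.9 CPM in the other vehicle libraries, and all 8 had counts in it. Most of the sum was Ttr (195 CPM). Otx2 and Prlr were higher in vehicle replicate 1 (7.65 and 1.32 CPM) than in vehicle replicate 2 (6.76 and 0.985 CPM). BPA replicate 2 had a still higher sum (346 CPM, of which Ttr 308 CPM) and was the lowest library for 1 of the 9 microglia genes. The part of choroid plexus tissue in the microglia values was not tested. Without both of these libraries, 0 of the 9 genes passed an adjusted p of 0.1, and Tyrobp alone had an unadjusted p under 0.05 (0.0212, with 0.622 after adjustment in the edgeR fit), as had 6.99% of all genes in that fit.

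Other genes of microglia and macrophages were measured to see whether the 9 stood for the cell type. Of 40 such genes, 26 were tested, and 0 passed an adjusted p of 0.1 or an unadjusted p of 0.05. Of these, 13 had a log2 fold change above 0 and 13 below, with a median of 0.0086. Cd68, a lysosomal membrane protein of phagocytes, had the smallest p of this list, at 5.44, 6.76 and 4.93 CPM in vehicle and 7.69, 6.50 and 9.92 CPM in BPA (log2 fold change 0.44, SE 0.237). Itgam, which encodes the CD11b chain of complement receptor 3, was at 5.59, 3.80 and 1.77 CPM in vehicle and 1.88, 1.95 and 3.79 CPM in BPA. Cyth4, an exchange factor for ARF proteins, was at 3.53, 4.08 and 4.34 CPM in vehicle and 4.87, 4.55 and 5.54 CPM in BPA (log2 fold change 0.31, SE 0.254), and was the 1 gene of the 26 whose groups did not overlap, against 6.75% of all genes. Sall1 (148 CPM in vehicle) was the most abundant of the list, but neural cells of the fetal brain also express this transcription factor. The summed level of the list, 321 CPM ± 19.0 under vehicle and 319 CPM ± 37.9 under BPA (SD, n = 3 each), is therefore not a measure of microglia alone.

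The pathways around the 9 genes were described in the same way. Among signaling genes downstream of TREM2 and TYROBP, 11 of 15 were tested and 0 passed either threshold. Inpp5d, a lipid phosphatase that restrains this signal, had the smallest p (0.0702, unadjusted) and was at 6.62, 6.48 and 6.51 CPM in vehicle and 5.03, 4.88 and 4.38 CPM in BPA. Its groups did not overlap, as for 6.75% of all genes, and the log2 fold change was -0.44 (SE 0.227). Of 25 complement genes other than C1q, 12 were tested and 0 passed either threshold, and 7 had at most 3 counts in every library, among them C1ra and C1s1, the proteases that C1q activates. C3 had from 0 to 3 counts in 5 libraries and 19 in BPA replicate 1. The best counted of the list was Sez6, a neuronal gene, which averaged 917 CPM ± 159 under vehicle and 962 CPM ± 55.9 under BPA (SD, n = 3 each).

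Lysosomal genes, which all cells use, gave no call either. Of 25, 24 were tested, 0 passed either threshold, 12 were above 0 and 12 below, and the summed level was 1898 CPM ± 82.5 under vehicle and 1880 CPM ± 139 under BPA (SD, n = 3 each). Ctsc and Tfeb, 2 of the 24, did not overlap between the groups, with lower BPA values, against 6.75% of all genes. Ligands and growth signals for microglia gave 0 of 13 tested genes past either threshold. Few genes of perinatal and reactive microglia could be tested, since 5 of 12 had at most 3 counts in every library and Gpnmb, Clec7a and Cst7 had 0 counts in all 6. Of the 4 tested, 1 had an unadjusted p under 0.05, against 2.20% of all genes. Fabp5, a fatty acid carrier also made by neural cells, averaged 49.7 CPM ± 10.7 under vehicle and 62.5 CPM ± 10.7 under BPA (SD, n = 3 each), with an adjusted p of 1.

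Macrophages at the brain's borders share many genes with microglia and could enter a cortical dissection with the meninges. Their markers varied over a wider range between libraries than those of microglia. Mrc1, the mannose receptor, was at 0.294, 1.27 and 4.73 CPM in vehicle and 1.73, 3.25 and 0 CPM in BPA, and F13a1 was at 0.882, 1.13 and 4.93 CPM and 0.628, 3.25 and 0.875 CPM. The collagen gene Col1a1 of meningeal fibroblasts was high in the same libraries, at 22.7 CPM in vehicle replicate 3 and 13.3 CPM in BPA replicate 2 against 2.06 to 5.50 CPM in the other 4. Summed over 13 genes, the border macrophage list ran from 19.1 to 49.9 CPM, a 2.61-fold range, whereas the 9 microglia genes ran over a 1.33-fold range. Stab1 (12.3 CPM on average) and Dab2 (11.1 CPM) weighed most in the border sum. It rested on 69 to 283 counts per library, against 234 to 484 for the microglia genes, so the ranges are not measured equally well. The defining markers Ms4a7, Cbr2, Siglec1, Cd163, Clec4n and Folr2 had at most 3 counts in every library. Of the 4 border macrophage genes tested, 0 passed either threshold. Without vehicle replicate 3 and BPA replicate 2, 0 of the 9 microglia genes passed either threshold.

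**Figure D4:**
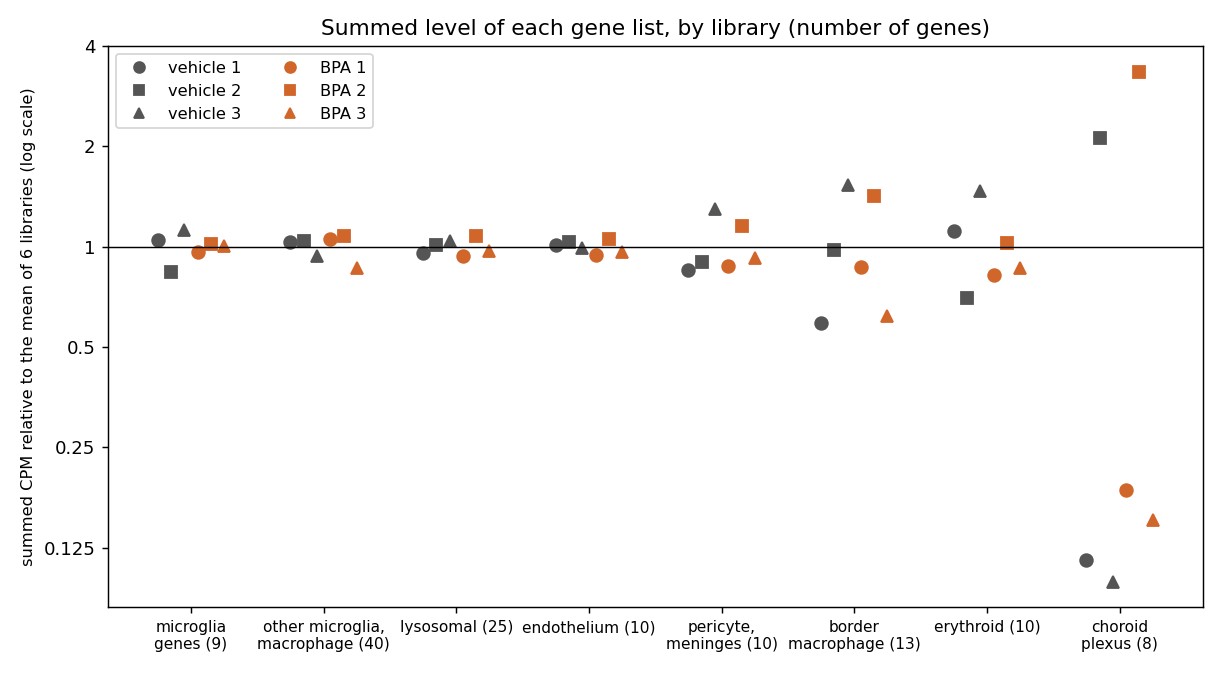
Summed CPM of each gene list relative to its mean over the 6 libraries (vertical axis, log scale), for vehicle (gray) and BPA (orange) libraries, with the number of genes in brackets. The microglia genes span a 1.33-fold range, the border macrophage list 2.61-fold and the choroid plexus list 33.8-fold, the last from vehicle replicate 2 and BPA replicate 2.

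Markers of other cell types in the dissected tissue gave no call between the groups. The endothelial list (10 of 10 tested) and the pericyte and meningeal list (9 of 10) had 0 genes past either threshold, as had the 10 markers of cortical neurons and progenitors and the 3 tested choroid plexus genes. Of 7 erythroid genes tested, 6 had a log2 fold change below 0, with a median of -0.26, and 1 had an unadjusted p under 0.05, against 2.20% of all genes. This was Hba-a1, at 169 CPM ± 63.2 under vehicle and 125 CPM ± 11.5 under BPA (SD, n = 3 each), with an adjusted p of 1.

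Likeness to the microglia genes across libraries was read as Pearson's r with the mean of their centered log2 CPM, over 6 libraries and 13259 genes averaging at least 2 CPM. Ndufa7 (0.989), Tmed9 (0.986), Ets1 (0.984), Azin2 (0.984), Wrb (0.981), Creg1 (0.980), Itpa-ps1 (0.976), Akr1a1 (0.976), Txn1 (0.975) and Sema7a (0.973) were most alike, and none of them is in a list used here. With 133 genes above 0.9 on 6 points, this is a description only. The members followed each other unevenly: r with the mean of the other 8 ran from -0.365 for Cx3cr1 to 0.880 for Csf1r, and the next highest was Tyrobp at 0.875. Both were lowest in vehicle replicate 2.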

How the data were processed

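The authors deposited raw read counts per gene symbol for 6 libraries. Per the study's methods, strand-specific libraries were read as single-end 50-base reads, aligned with TopHat (2.0.14) to GRCm38 and counted with featureCounts on GENCODE models. The strand and multi-mapping settings are not given in the sources used here. Replicates were numbered in accession order.

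In R 4.3.3, genes were kept by filterByExpr of edgeR 4.0.16 (minimum count 10, minimum total 15), scaled by TMM and compared by the quasi-likelihood test with Benjamini-Hochberg adjustment over all 13741 genes at 0.1. The study's methods name edgeR, TMM and this adjusted threshold; the quasi-likelihood test and the filter were chosen here. CPM used TMM-scaled library sizes. Each SE was the fold change divided by the root of its quasi-likelihood statistic, and likeness used log2 CPM with a prior count of 2. Lengths, coordinates and shared 50-base words came from GENCODE M21 (GRCm38), which matched all 213 listed symbols. The scripts were tested on simulated data.

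The members and lists were chosen with earlier results of these data known. Named from each list were the 2 genes with the highest level and the 2 with the smallest p, and for likeness the first 10. Of the genes this rule names, 1 is not reported here. Il34, Csf1, Cx3cl1, Spi1, C1ra, C1s1, C3, Cyth4, Lyz2, Mrc1, F13a1, Col1a1 and the genes at or near 0 counts are named for their role or count, after their values were seen. Alternatives were DESeq2 1.42.0, limma-voom (limma 3.58.1), edgeR's exact test, other scalings and filters, and omission of each library.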

Additional observations from a re-analysis of the deposited data

How the results depend on the processing

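No member passed an adjusted p of 0.1 under any of the 15 alternatives run, and all 9 were tested in each. The count over all genes was 0 and became 3 with DESeq2, 2 with edgeR's exact test, 19 with no filter, 15 without both libraries high in choroid plexus genes and 2 without both high in meningeal collagens (these last omissions were chosen after seeing the data), and ran from 0 to 1 when 1 library was left out. Members at an unadjusted p under 0.05 ran from 0 to 1 when 1 library was left out and numbered 1 without both libraries high in choroid plexus genes, in each case Tyrobp. The median log2 fold change ran from -0.198 to 0.0541 when 1 library was left out, lowest without vehicle replicate 2, and was -0.21 without both libraries high in choroid plexus genes. Members whose groups did not overlap ran from 0 to 4 when 1 library was left out, where 12.2% to 19.7% of all genes did not, and numbered 5 without the choroid plexus pair (35.2% of all genes) and 4 without the meningeal pair (27.3%). The ratio of summed CPM stayed between 0.912 and 1.05.

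Directions near 0 turned. Csf1r was at 0.0007025 with library size alone, 0.0373 with limma-voom, 0.0840 without both libraries high in meningeal collagens and from -0.216 to 0.144 when 1 library was left out. Without the same pair Cx3cr1 was at -0.0164 and Fcrls at 0.0883. When 1 library was left out Cx3cr1 ran from -0.0017 to 0.151, P2ry12 from -0.198 to 0.0231, Trem2 from -0.0739 to 0.438, C1qb from -0.405 to 0.0831 and C1qc from -0.0567 to 0.237. Tyrobp kept its sign, from -1.0 to -0.0733, and was at -0.0208 with limma-voom and -1.17 without both libraries high in choroid plexus genes. For all changes given here the cause was not tested. Per length of the longest coding transcript Csf1r moved from 3.16 to 3.88 CPM per kilobase. No paired analysis was possible because the labels give fetuses no shared replicate numbers. Depth limits Tyrobp and Trem2 most, at 3 to 27 counts per library.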
